A study of Homo sapiens with 9 samples.

Results

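TBC1D3 is a family of near-identical genes on the long arm of human chromosome 17, and the 10 copies listed by NCBI Gene ID were read here as single genes and as a sum. They are TBC1D3, TBC1D3B, TBC1D3C, TBC1D3D, TBC1D3E, TBC1D3F, TBC1D3G, TBC1D3H, TBC1D3K and TBC1D3L, 10 of the 28395 genes counted. The members were chosen by the low level of TBC1D3D that had been seen against control in both treated groups, with the question whether its near-identical copies made up for the loss. Levels of the copies against control are therefore given as a description, with no p-value.

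The cells were differentiated Caco-2, an established line from a human colon carcinoma whose cells take on enterocyte features when grown to a dense layer, labelled wild type. Total RNA was sequenced after 24 h in regular medium (control), in medium with 10 µM carmine, or in medium with 20 µM carminic acid, with 3 libraries per group, lettered A, B and C. Carminic acid is a red anthraquinone glycoside made by cochineal insects. Carmine is the aluminium complex of this dye. The treated groups differ both in the compound and in its dose. All groups are 1 cell line, and separate cultures are not stated for the libraries of a group, so every spread below may be technical.

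TBC1D3 genes are found in apes and humans, where the ancestral gene was amplified by segmental duplication. The proteins carry a TBC domain, the fold by which most members of the wider TBC family switch off RAB GTPases, although whether TBC1D3 itself has this activity is disputed. TBC1D3 is known from cultured cells for binding RAB5-linked trafficking factors and for slowing the breakdown of the EGF receptor and of insulin receptor substrate after growth factor stimulation. USP6, a deubiquitinase and oncogene, arose from a fusion of a TBC1D3 gene with USP32.

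Total counts ran from 54871018 to 57581301 per library. Carmine library C stood apart from its group: the chi-square per degree of freedom over genes was 77.2 against library A and 56.7 against library B, while no other pair of libraries of 1 group exceeded 21.2. For the listed copies that were tested, and for the sums of the listed copies, values of the main fit that use carmine library C are given with and without it. Markers of enterocyte-like Caco-2 cells were abundant in 6 of 7 cases, with VIL1 (villin, of the brush border) between 1107 and 1346 CPM (the count scaled to the size of its library), and KRT20 was at 0 in all 9 libraries. Of 8 markers of other cell types, INS was at 0 and PTPRC, COL1A2, MUC2 and CHGA had at most 3 counts in any library, whereas COL1A1 reached 146 CPM, PECAM1 12.5 CPM and CD3E 0.609 CPM. The summed CPM of these 8 markers was 115 to 157 in control, 107 to 129 in carmine and 113 to 144 in carminic acid, and their part in the results below was not tested.

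The 10 copies lie in 2 blocks of chromosome 17 on GRCh38. TBC1D3B, G, H and F lie between positions 36165683 and 36439521, and TBC1D3K, L, D, C, E and TBC1D3 itself lie between 37923536 and 38192555, by RefSeq's gene extents. TBC1D3D (Gene ID 101060389) is annotated at chr17:38002322-38014908 on the plus strand. TBC1D3L (Gene ID 101060376), the next copy, lies on the minus strand at chr17:37978155-37989060, and TBC1D3E (Gene ID 102723859) lies on the plus strand at chr17:38124106-38138868. The reference table holds 20 TBC1D3 genes and pseudogenes, of which 16 are in the count files. Copy number in the genome of Caco-2 cells was not analysed here.

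The copies differ by so few bases that reads can be told apart only in short stretches. In GENCODE transcripts, 9 of the 10 copies have a coding sequence of 1647 bases without the stop codon, and TBC1D3F has 1485 bases. Aligned coding bases were 99.26% to 99.94% identical between any pair of copies. Only 15 coding positions varied among the 9 full-length copies. TBC1D3B carried 4 bases that none of the other 8 had, TBC1D3L 2, TBC1D3E 2, and TBC1D3D none. TBC1D3D and TBC1D3L, the copies with the most counts in control, differed at 2 coding bases, C1073A and A1577C (the base of TBC1D3D, the position counted from 1 at the A of the start codon, and the base of TBC1D3L).

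**Figure D1:**
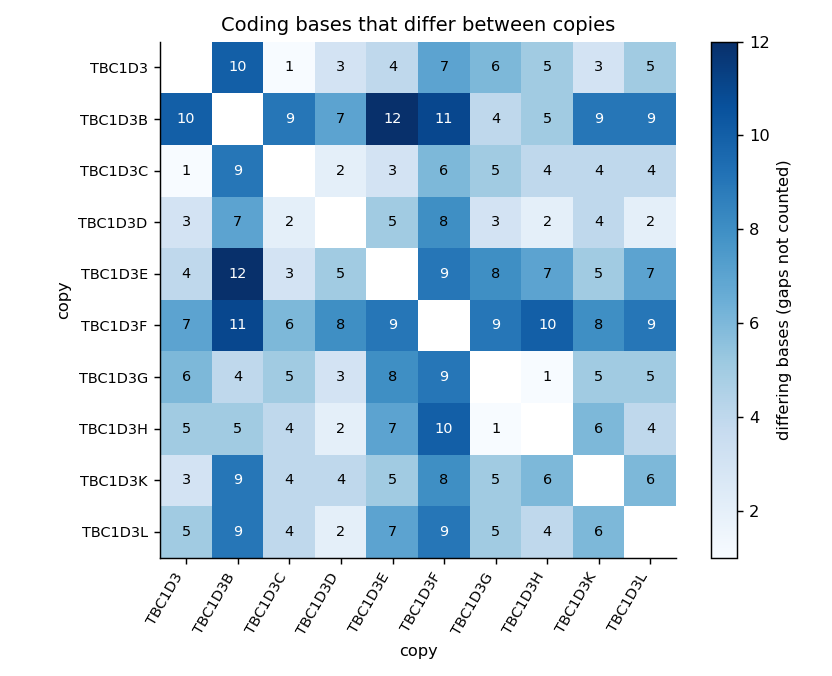
Number of coding bases that differ between each pair of the 10 copies in GENCODE transcripts on GRCh38; both axes list the copies, and colour and digits give the same count, with alignment gaps left out. Pairs differ at 1 to 12 bases, and TBC1D3D differs from TBC1D3L, TBC1D3C and TBC1D3H at 2 bases each.

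The stretches of coding exon around the bases that belong to TBC1D3L or TBC1D3E alone are shown because those bases set the copy apart from the other 8 full-length copies. TBC1D3E also differs from TBC1D3D and TBC1D3L at G410A and T540C, where it shares its base with other copies. They are written 5′ to 3′ on the coding strand, from GENCODE v29 transcripts on GRCh38, and capitals mark positions that vary among the 9 full-length copies. The first stretch covers coding positions 1041 to 1081, with the base of TBC1D3L alone at 1073 and C1060A in TBC1D3E.
TBC1D3D, chr17:38013021-38013061, plus strand: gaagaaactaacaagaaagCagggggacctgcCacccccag
TBC1D3L, chr17:37980020-37980060, minus strand: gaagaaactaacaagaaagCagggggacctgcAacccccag
TBC1D3E, chr17:38136963-38137003, plus strand: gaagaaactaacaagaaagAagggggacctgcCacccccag
The second covers positions 1557 to 1597, where TBC1D3L differs and TBC1D3D and TBC1D3E are the same.
TBC1D3D, chr17:38014500-38014540, plus strand: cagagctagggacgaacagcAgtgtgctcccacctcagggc
TBC1D3L, chr17:37978523-37978563, minus strand: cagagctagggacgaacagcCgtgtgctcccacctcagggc
The third covers positions 869 to 909, with T889C in TBC1D3E, and TBC1D3L has the letters of TBC1D3D there.
TBC1D3D, chr17:38012479-38012519, plus strand: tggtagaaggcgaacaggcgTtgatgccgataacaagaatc
TBC1D3E, chr17:38136421-38136461, plus strand: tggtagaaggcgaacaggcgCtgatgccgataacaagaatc
The last covers positions 280 to 320, with G290A in TBC1D3E, and TBC1D3L again has the letters of TBC1D3D.
TBC1D3D, chr17:38008210-38008250, plus strand: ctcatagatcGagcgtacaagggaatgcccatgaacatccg
TBC1D3E, chr17:38132145-38132185, plus strand: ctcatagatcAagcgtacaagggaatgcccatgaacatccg

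Windows of 100 bases were moved along 1 coding transcript of each copy and looked up in the transcripts of all other GENCODE genes. For TBC1D3D, 148 of 2017 windows (7.34%) were in no other gene, of which 48 reached into its 5′ UTR, 100 into its 3′ UTR, and none lay in the coding sequence alone. For TBC1D3L the share was 9.76% and for TBC1D3E 12.1%, and for TBC1D3E all of these windows lay in the coding sequence. TBC1D3B had the highest share, 26.0%. TBC1D3 and TBC1D3G had no such window at 50, 75, 100 or 150 bases, yet both had counts, up to 19 and 18 in a library. Introns were not searched, and how the authors' counting treated reads that map to several places is not given in the sources used here. Counts of any single copy are therefore uncertain, while the sum over copies does not depend on how such reads were shared among the 10. It does depend on whether they were counted at all.

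The bases ahead of the annotated start were compared next, because copies with very different counts can be set side by side there. RefSeq's windows around the start (GRCh38.p14) were found for all 10 copies. TBC1D3D and TBC1D3L were identical over the 255 bases that both windows cover, and TBC1D3 and TBC1D3C had no mismatch to either. TBC1D3D and TBC1D3F were the least alike, at 96.47%. The shared stretch ahead of the start is printed for TBC1D3D and TBC1D3E, with capitals where these differ, and TBC1D3L holds the letters of TBC1D3D at chr17:37989106-37989310 on the minus strand. RefSeq's gene extent of TBC1D3D begins further upstream than this window, so other starts of the gene are not covered.
TBC1D3D, chr17:38003771-38003975, plus strand: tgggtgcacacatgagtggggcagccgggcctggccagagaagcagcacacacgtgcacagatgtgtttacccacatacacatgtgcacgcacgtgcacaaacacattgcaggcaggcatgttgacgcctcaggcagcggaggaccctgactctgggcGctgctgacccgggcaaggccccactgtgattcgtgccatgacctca
TBC1D3E, chr17:38127705-38127910, plus strand: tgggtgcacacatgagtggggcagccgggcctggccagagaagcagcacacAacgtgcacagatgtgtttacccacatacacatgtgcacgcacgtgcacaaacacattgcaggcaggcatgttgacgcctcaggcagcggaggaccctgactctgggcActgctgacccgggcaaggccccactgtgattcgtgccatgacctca
Over the whole shared windows, TBC1D3E had 1 mismatch and 1 gap base against TBC1D3D.

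TBC1D3D was about 10 times lower in carmine and about 9 times lower in carminic acid than in control. It had 145, 79 and 122 raw counts in control libraries A, B and C. It had 9, 4 and 21 counts in the carmine libraries and 18, 17 and 4 in the carminic acid libraries. All 6 treated libraries lay below the lowest control library, and the treated groups overlapped each other. In bulk RNA, fewer cells with the transcript and less of it per cell cannot be told apart. Levels in CPM, scaled by TMM factors, were 2.04 ± 0.607 (SD, n = 3) in control, 0.203 ± 0.161 (SD, n = 3) in carmine and 0.230 ± 0.137 (SD, n = 3) in carminic acid. The ratio of control to treated mean CPM was 10.1 for carmine and 8.87 for carminic acid.

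In the edgeR fit of all 9 libraries, the log2 fold change of TBC1D3D was -3.33 (SE 0.49) in carmine and -3.13 (SE 0.48) in carminic acid. Both contrasts share the control libraries, so the likeness of these values is not independent evidence. Without carmine library C, in which TBC1D3D had its highest treated count, the value in carmine was -4.14. Among 16017 tested genes, TBC1D3D had the 2nd most negative fold change in carmine and the 4th in carminic acid. These ranks follow from the choice of TBC1D3D by its low level in these contrasts, and nothing is read from them. Carmine and carminic acid, compared directly, gave a log2 fold change of -0.20 (95% interval -1.44 to 1.05), and edgeR's quasi-likelihood test with Benjamini-Hochberg adjustment gave an adjusted p of 0.946. This value was -1.003 without carmine library C, with an edgeR adjusted p of 0.317.

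**Figure D2:**
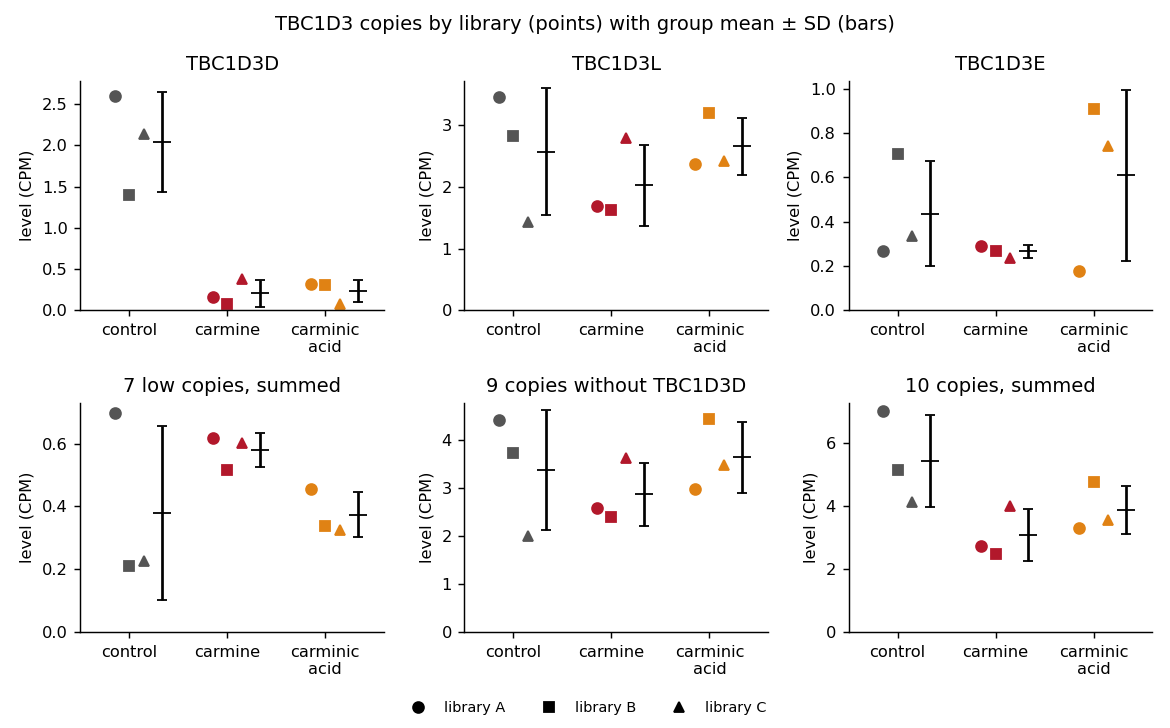
Level in CPM (TMM-scaled, linear axes from 0) of TBC1D3D, TBC1D3L, TBC1D3E, the sum of the other 7 copies, the sum of 9 copies without TBC1D3D and the sum of 10 copies, in control, carmine and carminic acid. Symbols are libraries A, B and C, and the black bars are the group mean ± SD (n = 3). The 6 treated libraries of TBC1D3D sit between 0.0712 and 0.383 CPM, below all control libraries, while TBC1D3L overlaps between all groups.

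TBC1D3L, the copy with the most counts over the 9 libraries, was not higher than control in either treated group beyond the spread between libraries. It had 193, 160 and 82 counts in control, 98, 91 and 153 in carmine and 135, 179 and 134 in carminic acid. Every treated library lay within the control range, which was itself wide because control library C had the lowest count of the 9. Its level was 2.57 ± 1.03 CPM (SD, n = 3) in control, 2.03 ± 0.657 CPM in carmine and 2.66 ± 0.463 CPM in carminic acid. The fitted log2 fold change was -0.34 (SE 0.29) in carmine and 0.05 (SE 0.29) in carminic acid. Without carmine library C, the value in carmine was -0.63. Between the compounds it was -0.39 (95% interval -1.02 to 0.23), with an edgeR adjusted p of 0.724. Leaving out carmine library C gave -0.68 here, with an edgeR adjusted p of 0.182.

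TBC1D3E differed between libraries more than between groups. It had 15, 40 and 19 counts in control, 17, 15 and 13 in carmine, and 10, 51 and 41 in carminic acid. Carminic acid libraries B and C were above all control libraries, and carminic acid library A was below them all. Its level was 0.436 ± 0.236 CPM (SD, n = 3) in control, 0.265 ± 0.0276 CPM in carmine and 0.609 ± 0.385 CPM in carminic acid. The fitted log2 fold change was -0.71 (SE 0.53) in carmine and 0.48 (SE 0.49) in carminic acid. Control library B decided much of the first: without it the value in carmine was -0.18, while without carmine library C it was -0.63. TBC1D3E was lower in carmine than in carminic acid by a log2 fold change of -1.19 (95% interval -2.30 to -0.08), but edgeR's adjusted p over all tested genes was 0.534. This value was -1.10 without carmine library C, with an edgeR adjusted p of 0.283.

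The other 7 copies had too few counts to be tested, and together they held 39, 12 and 13 counts in control, 36, 29 and 33 in carmine and 26, 19 and 18 in carminic acid. TBC1D3K had 6, 4 and 2 counts in control, 17, 11 and 3 in carmine, and 6, 8 and 2 in carminic acid. Carmine libraries A and B were above the control range for this copy and library C was inside it. TBC1D3 itself had 5, 1 and 4 counts in control and 10, 3 and 6 in carminic acid, and in carmine 6 and 1 in libraries A and B but 19 in library C. The single high value of TBC1D3 was thus in the library that stood apart. TBC1D3C stayed between 3 and 8 counts in all 9 libraries.

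TBC1D3G was counted unevenly, with 18, 2 and 2 counts in control, 0, 8 and 0 in carmine and 0 in each carminic acid library. A count of 0 in the 3 carminic acid libraries together allows up to 3 counts, or 0.0178 CPM. By counting error in these 3 libraries alone, that bound is 7.28-fold below the pooled control libraries. Of the 22 control counts, 18 came from control library A, and without that library the bound was 1.97-fold, on 4 control counts. The limit of 3 counts leaves out the spread between libraries, so no fold is read from it. No window of TBC1D3G was found in this copy alone, and the part of read assignment in its counts was not tested. TBC1D3B, TBC1D3F and TBC1D3H never exceeded 4 counts in a library. TBC1D3F had 2, 3 and 2 counts in carmine against 0, 1 and 1 in carminic acid, too few to read a difference from.

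**Figure D3:**
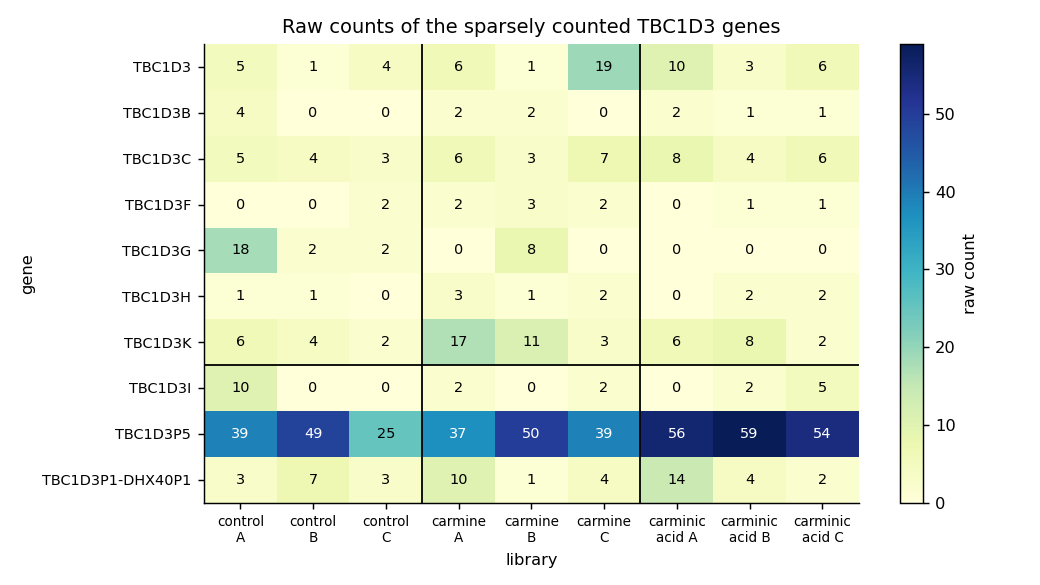
Raw counts in each of the 9 libraries (columns) of the 7 listed copies that were not tested and, below the horizontal line, of 3 TBC1D3 genes outside the list (rows); colour and digits give the same count. Apart from TBC1D3P5, counts stay at or below 19, and the values of 18 for TBC1D3G and 19 for TBC1D3 each come from 1 library.

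Levels were set side by side per length of transcript, in CPM per kb. The whole transcript length was used, although the share of windows found in no other gene differed between copies. The order of the copies may depend on how reads that map to several places were counted, which was not tested. In control TBC1D3L had 1.20 ± 0.481 (SD, n = 3), TBC1D3D 0.966 ± 0.287 and TBC1D3E 0.210 ± 0.114 CPM per kb. The first and second of these did not differ beyond their spread, and TBC1D3E was below both. In carmine TBC1D3L had 0.945 ± 0.306, TBC1D3E 0.128 ± 0.0133 and TBC1D3D 0.0958 ± 0.0762 CPM per kb. TBC1D3K followed at 0.0855 ± 0.0564 and TBC1D3 at 0.0755 ± 0.0826, so TBC1D3D lay within the spread of these copies. In carminic acid TBC1D3L had 1.24 ± 0.216, TBC1D3E 0.293 ± 0.186 and TBC1D3D 0.109 ± 0.0647 CPM per kb.

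The family sum tells how much of the loss the other copies made up. The 10 copies together had 392, 291 and 236 counts in control, 160, 139 and 220 in carmine and 189, 266 and 197 in carminic acid. All 3 carmine libraries were below the lowest control library, where 7.67% of all tested genes were lower without overlap. Carminic acid library B, with 266 counts, lay above control library C. The sum holds TBC1D3D, chosen by its low level in these contrasts, so a lower sum follows in part from that choice. The summed level was 5.43 ± 1.47 CPM (SD, n = 3) in control, 3.08 ± 0.818 CPM in carmine and 3.88 ± 0.768 CPM in carminic acid. The log2 fold change of the sum was -0.82 (SE 0.22) in carmine and -0.49 (SE 0.22) in carminic acid. Without carmine library C, the value in carmine was -1.05. The mean of the sum was thus lower than in control by 43.4% in carmine and 28.7% in carminic acid.

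The 9 copies other than TBC1D3D did not differ from control beyond the spread between libraries. They summed to 247, 212 and 114 counts in control, 151, 135 and 199 in carmine and 171, 249 and 193 in carminic acid. Their level was 3.39 ± 1.25 CPM (SD, n = 3) in control, 2.87 ± 0.658 CPM in carmine and 3.64 ± 0.737 CPM in carminic acid. The log2 fold change was -0.24 (SE 0.26) in carmine and 0.11 (SE 0.26) in carminic acid. The first value was -0.43 without carmine library C.

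Set against each other, TBC1D3D was lower than control by a mean of 1.84 CPM in carmine and 1.81 CPM in carminic acid, and the 9 other copies were lower by 0.515 CPM in carmine and higher by 0.256 CPM in carminic acid. In carmine the mean of the 9 other copies together moved the same way as TBC1D3D, so nothing was offset in the mean of their sum. Among them, TBC1D3L and TBC1D3E had lower means in carmine. The 7 sparse copies together were at 0.579 CPM in carmine and 0.380 CPM in control, with overlap of the groups. The overlap came from control library A, at 0.699 CPM. Control libraries B and C were at 0.212 and 0.228 CPM, and the carmine libraries at 0.517 to 0.618 CPM. The sum of these sparse copies was also higher in carmine than in carminic acid without overlap, where 7.09% of all tested genes were. In carminic acid the mean difference of the other copies equalled 14.1% of the TBC1D3D loss, and it was smaller than their SD in either group. Its direction turned with 1 library left out: the log2 fold change of 0.11 became -0.17 without control library C and -0.06 without carminic acid library B. A partial offset within that spread would not be detectable with 3 libraries per group.

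**Figure D4:**
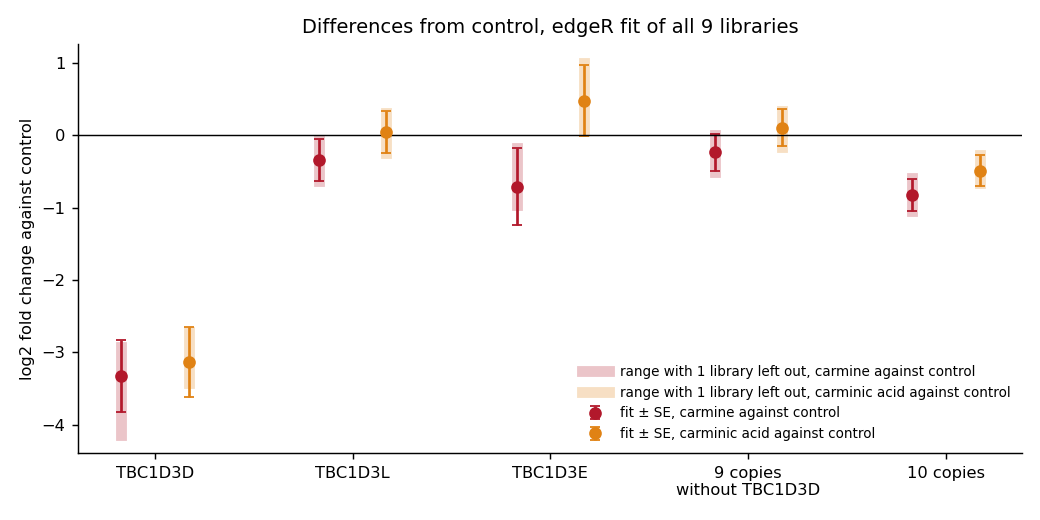
Log2 fold change against control (y axis) of TBC1D3D, TBC1D3L, TBC1D3E, the 9 copies without TBC1D3D and the sum of 10 copies, in carmine and carminic acid; points and bars are the edgeR fit of all 9 libraries ± SE, and the pale bands span the values with 1 library left out. TBC1D3D lies at -3.33 and -3.13, the 9 other copies at -0.24 and 0.11, and the sum at -0.82 and -0.49.

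The make-up of the family counts does not depend on the scaling of the libraries. TBC1D3D took 37.0% of the family counts in control library A (95% exact Clopper-Pearson interval 32.2% to 42.0%), 27.1% in B (22.1% to 32.6%) and 51.7% in C (45.1% to 58.2%). It took 5.63%, 2.88% and 9.55% in carmine libraries A, B and C, and 9.52%, 6.39% and 2.03% in carminic acid. The intervals of the treated libraries reached up to 14.6%. These intervals cover counting error only, and they are narrower than the spread between control libraries. TBC1D3L took 34.7% to 55.0% in control, 61.3% to 69.5% in carmine and 67.3% to 71.4% in carminic acid. Shares add up to 100%, so the higher share of TBC1D3L goes with the lower share of TBC1D3D and does not show a higher level.

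Per 100 counts of TBC1D3L in the same library, TBC1D3D had 75.1, 49.4 and 149 counts in control libraries A, B and C. It had 9.18, 4.40 and 13.7 in carmine and 13.3, 9.50 and 2.99 in carminic acid. The groups of treated libraries did not overlap control by this ratio, which needs no library total. In control library C, TBC1D3D outnumbered TBC1D3L, while in the other 8 libraries it did not. The other 7 copies took 4.12% to 9.95% of the family counts in control, 15% to 22.5% in carmine and 7.14% to 13.8% in carminic acid.

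**Figure D5:**
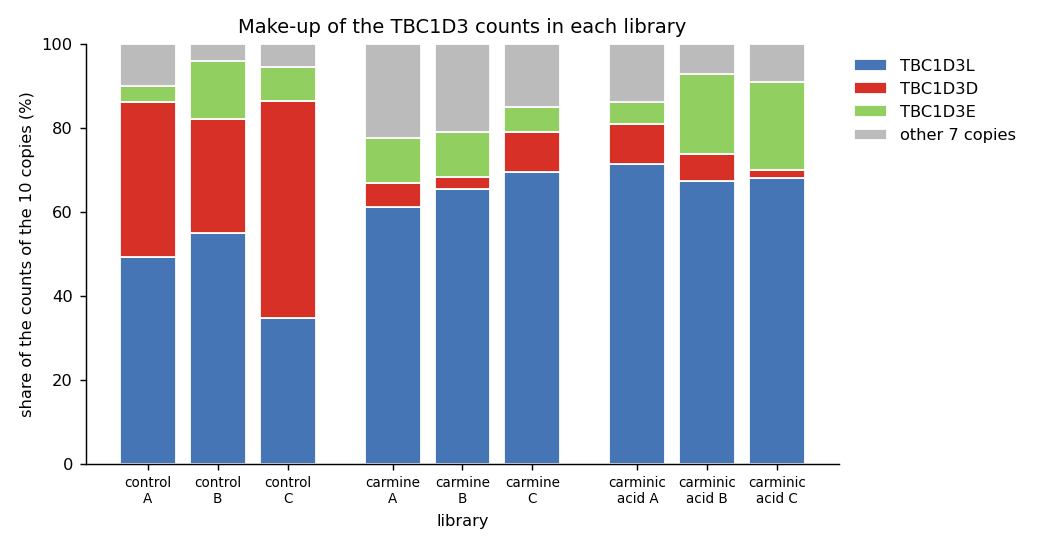
Share of the summed counts of the 10 copies (y axis, percent) taken by TBC1D3L, TBC1D3D, TBC1D3E and the other 7 copies in each of the 9 libraries (x axis). TBC1D3D takes 27.1% to 51.7% in control and at most 9.55% in any treated library.

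Read against all tested genes, 1 of the 3 tested copies was lower without overlap of the groups in carmine, where 7.67% of 16017 genes were, and 1 of 3 in carminic acid, where 8.82% were. These contrasts chose the members, and nothing is read from the counts. At an adjusted p under 0.05, edgeR called 0% of genes in either contrast. In these contrasts 1760 and 1030 genes had an unadjusted p under 0.05, DESeq2 called 75 and 8, and limma-voom called 51 and 82. Between carmine and carminic acid edgeR called 1 gene (0.00624%), which was no copy of TBC1D3. In that contrast none of the 3 tested copies was without overlap, where 6.01% of genes were lower in carmine and 7.09% higher. The difference of the family sum between the compounds was -0.33 (95% interval -0.81 to 0.14), with an edgeR adjusted p of 0.695. That of the 9 copies without TBC1D3D was -0.34 (95% interval -0.90 to 0.21), with an edgeR adjusted p of 0.727. Without carmine library C these values were -0.56 and -0.53, with edgeR adjusted p-values of 0.126 and 0.283.

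Of the 6 TBC1D3 genes outside the list, the pseudogene TBC1D3P5 had most counts. It had 39, 49 and 25 counts in control, 37, 50 and 39 in carmine and 56, 59 and 54 in carminic acid, where all 3 libraries were above control. The share of all tested genes higher without overlap in that contrast was not computed, so nothing is read from this separation. The log2 fold change of TBC1D3P5 was 0.16 (SE 0.28) in carmine and 0.59 (SE 0.27) in carminic acid, with edgeR adjusted p-values of 0.847 and 0.717. TBC1D3I had at most 10 counts in a library, the readthrough TBC1D3P1-DHX40P1 at most 14 and TBC1D3P2 at most 3, and TBC1D3P6 and TBC1D3JP were at 0 throughout. With all 16 TBC1D3 genes summed, the log2 fold change was -0.66 in carmine and -0.30 in carminic acid. This wider sum was not fitted without carmine library C.

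USP6, which holds a TBC1D3-derived part, had 73, 61 and 62 counts in control, 66, 62 and 53 in carmine, and 57, 40 and 29 in carminic acid. All 3 carminic acid libraries were below control, where 8.82% of all tested genes were lower without overlap. The log2 fold change of -0.63 (SE 0.25) did not pass the test (edgeR adjusted p = 0.717). USP32, the other parent of USP6, was at 75.6 ± 4.24 CPM (SD, n = 3) in control, 70.0 ± 9.19 CPM in carmine and 72.4 ± 2.39 CPM in carminic acid, with an edgeR adjusted p of 0.643 in carmine and 0.847 in carminic acid. Of the 5 relatives outside the copies (USP6, USP32, TBC1D26, TBC1D28 and TBC1D29P), 3 were tested and none was called in any contrast. Over all 16017 tested genes, edgeR called 0 in either contrast with control and 1 between the compounds.

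Genes of the machinery in which TBC1D3 acts were followed as lists. Of 40 other TBC-domain genes, most of them RAB GTPase-activating proteins, 39 were tested. None was called in either contrast with control, where edgeR called 0 of all 16017 tested genes, so this does not set any list apart. An unadjusted edgeR p under 0.05 was seen for 5 of the 39 in carmine and 6 in carminic acid. Over all tested genes these numbers were 1760 and 1030. The median log2 fold change of the 39 was 0.00 in carmine and 0.01 in carminic acid, beside 0.01 and -0.01 over all tested genes. SGSM2 had the smallest p of the list in carmine, with a log2 fold change of -0.23 (edgeR adjusted p = 0.398), and TBC1D2 in carminic acid, with 0.28 (edgeR adjusted p = 0.717). Of 28 genes of RAB5 function and receptor endocytosis, all were tested and again none was called, with medians of -0.01 in carmine and 0.01 in carminic acid. Of these 28, 3 had an unadjusted edgeR p under 0.05 in carmine and 1 in carminic acid. RAB4A, a GTPase of fast receptor recycling, had the smallest p in carmine at 0.21 (edgeR adjusted p = 0.384), and AP2A1, a subunit of the clathrin adaptor AP-2, in carminic acid at 0.17 (edgeR adjusted p = 0.717).

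Of the marker lists, none of 6 tested Caco-2 markers and none of 3 tested markers of other cell types was called against control. No gene of the whole set was called there either. The summed CPM of the Caco-2 markers was 3376 to 3488 in control, 3373 to 3475 in carmine and 3562 to 3722 in carminic acid. Of the 6 tested, 4 had a positive log2 fold change in carmine and 6 in carminic acid. Over all 16017 tested genes these numbers were 8276 and 7706. The part of the marker differences in the levels of the copies was not tested. CDX2, an intestinal transcription factor, had the smallest p of the first list in carmine at 0.17 (edgeR adjusted p = 0.527), and ALPI, intestinal alkaline phosphatase, in carminic acid at 0.16 (edgeR adjusted p = 0.717). Of the second list CD3E had the smallest p in carmine at -0.61 (edgeR adjusted p = 0.513), and PECAM1 in carminic acid at 0.12 (edgeR adjusted p = 0.776).

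The nearest genes of the count files beside the 10 copies numbered 7, and NPEPPSP1 alone had enough counts to be tested. This pseudogene lies 3185 bases beyond TBC1D3 and 56872 bases beyond TBC1D3E. It had 37, 26 and 25 counts in control, 26, 37 and 137 in carmine and 28, 37 and 106 in carminic acid. The C libraries of both treated groups were far above their partners, and the log2 fold changes of 1.20 and 0.97 did not pass the test (edgeR adjusted p = 0.551 and 0.740). Without carmine library C the first was 0.09, and without carminic acid library C the second was 0.14, which were alternatives chosen after seeing the data. With the TBC1D3 copies left aside, neither of the nearest genes of the files on the sides of TBC1D3D had enough counts to be tested.

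The genes whose log2 CPM followed that of TBC1D3D most closely over the 9 libraries, among the 13237 genes whose average log2 CPM was 0 or more, were RNPC3 (Pearson r = 0.96), LUC7L (0.95), MPP3 (0.95), HEATR3 (0.95) and DDX12P (0.94). These values rest on the gap between control and treated libraries, which all of them share, and on libraries of 1 scaling. RNPC3, a protein of the minor spliceosome, was at 5.69 ± 0.356 CPM (SD, n = 3) in control, 3.89 ± 0.312 in carmine and 4.32 ± 0.342 in carminic acid. DDX12P, a helicase pseudogene, was at 13.6 ± 0.489 CPM in control, 8.92 ± 0.512 in carmine and 9.92 ± 1.30 in carminic acid. The family sum was followed most closely by GDPD3 (0.98), SGSM2 (0.96), PI4KAP2 (0.94), ZNF345 (0.94) and GNB3 (0.94). By the ratio of control to treated mean CPM, none of these 10 genes was as far below control as TBC1D3D. TBC1D3D was chosen by its low level against control, so nothing is read from this.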

How the data were processed

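The authors deposited raw counts of reads per NCBI Gene ID for 9 libraries of Caco-2 RNA, 3 per group. HISAT2 was the aligner, per the file headers. Per the submitters' processing notes, FastQC, HISAT, featureCounts and hg38 were used. Strand setting, gene annotation, library kit and the handling of multi-mapping reads are stated in none of the sources used here. Symbols came from the RefSeq table of GRCh38.p14, which named 27745 of 28395 genes. Genes without a symbol numbered 650.

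Counts were fitted in R 4.3.3 with edgeR 4.0.16 (filterByExpr by group, TMM factors, robust quasi-likelihood, all 9 libraries, two-sided, Benjamini-Hochberg adjustment over 16017 tested genes, threshold 0.05). The biological coefficient of variation was 10.9%. The fit was run on simulated data with the same spread for all genes and no outlying library. That run cannot show how the fit behaves with a library such as carmine library C. Of the 10 copies, 3 passed the filter and 7 did not. Sums over copies replaced the rows of their members before fitting. The chi-square per degree of freedom between libraries of a group was 9.51 or more, so none was counted as a copy of another. Shares have 95% exact Clopper-Pearson intervals (SciPy 1.17.1), which cover counting error only. Intervals of differences are 95% intervals from the fit. Sequences were aligned with Biopython 1.88.

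The members and lists were chosen with earlier results of these data known. The genes named are the 10 copies, all other TBC1D3 genes, USP6, USP32, the member of each of 6 lists with the smallest p in each contrast with control, and the 5 genes most correlated with TBC1D3D and with the sum. The lists were relatives outside the copies, TBC-domain genes, RAB5 and receptor endocytosis, Caco-2 markers, markers of other cell types, and neighbours. Alternatives were other size factors, no filter, DESeq2 1.42.0, limma-voom (limma 3.58.1), a replicate block, only the libraries compared, leaving out each library, and a wider sum.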

Additional observations from a re-analysis of the deposited data

How the results depend on the processing

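TBC1D3D was below control in both contrasts under every alternative run, at -4.14 to -2.93 in carmine and -3.43 to -2.72 in carminic acid with 1 library left out. The family sum was below control under all alternatives too, at -1.05 to -0.60 in carmine and -0.66 to -0.27 in carminic acid. TBC1D3D was chosen by its low level in these same libraries, and the sum holds it, so nothing is read from these directions. The 9 copies without TBC1D3D ran from -0.50 to -0.00 in carmine and from -0.17 to 0.34 in carminic acid, so their direction in carminic acid depended on the library left out. Between carmine and carminic acid, TBC1D3D, TBC1D3L, TBC1D3E, the sum of 10 and the sum of 9 copies passed the threshold in none of the alternatives that gave an adjusted p. DESeq2 gave none for TBC1D3D and TBC1D3E, and the wider sum was not run in this contrast. The small difference of TBC1D3D between the compounds turned to 0.21 without carmine library B, to 0.10 without carminic acid library A and to 0.05 without carminic acid library B, and ran from -1.003 to 0.21 over libraries left out.

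Counts of called genes over the whole table did depend on the method. In carmine against control edgeR called 0 genes, 7 with RLE factors, 7 with library size alone, 19 without the filter and 12 with only the 6 libraries compared, DESeq2 called 75 and limma-voom 51. In carminic acid against control edgeR called 0, 2 without the filter and 49 with only the 6 libraries, DESeq2 8 and limma-voom 82. Between the compounds edgeR called 1, 2 with RLE factors, 2 with library size alone and 9 without the filter, DESeq2 77 and limma-voom 82. With 1 library left out the counts ran from 1 to 36, from 0 to 1 and from 0 to 685 in these contrasts. The highest values, 36 and 685, came without carmine library C. The cause was not tested.

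The replicate letters are not stated to pair the libraries. Correlations of the deviations of libraries of the same letter ran from -0.15 to 0.10 over 9 pairs. For different letters they ran from -0.16 to 0.16. Correlations over all genes cannot decide whether a letter marks a shared day or batch. With the replicate block, TBC1D3D was at -3.33 in carmine and -3.09 in carminic acid, the family sum at -0.81 and -0.48, and 0 genes were called in each of the 3 contrasts. Depth limits the 7 sparse copies, which had 12 to 39 counts together in a library.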
